A study of Mus musculus with 9 samples.

Results

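The mRNA levels of 9 genes around the Ras switch were followed in mouse AKP tumour organoids: the Ras genes Nras and Hras, the transcription factor genes Etv4 and Etv5, the Sprouty genes Spry2 and Spry4, and the phosphatase genes Dusp4, Dusp5 and Dusp6. They were taken by symbol, through the GENCODE M21 annotation, from a table of 21253 genes, in which all 9 had 1 row each. Poly(A) RNA was sequenced in 3 samples of each of 3 groups, whose titles all name a hairpin against Apc. In the controls, labelled as having Apc off, doxycycline was kept, and in the other groups doxycycline had been withdrawn for 2 days or 7 days, which restores Apc. The labels do not spell out the alleles behind the name AKP, and they number the replicates as technical, so p-values reflect sample-to-sample spread that may be purely technical. Withdrawal of doxycycline, return of Apc and time in culture cannot be told apart in this design.

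As background, Ras proteins are small GTPases that relay signals from growth factor receptors to the RAF, MEK and ERK kinases when bound to GTP. Active ERK switches on genes that restrain the same pathway. Sprouty proteins act between the receptor and Ras or RAF, and the dual-specificity phosphatases encoded by Dusp genes remove the activating phosphates from ERK. Dusp6 works in the cytoplasm, while Dusp4 and Dusp5 work in the nucleus. Etv4 and Etv5 are ETS factors of the PEA3 group, often read as ERK outputs and held down by the repressor Capicua. In the intestine this pathway is best known for driving growth of crypt cells.

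Totals ran from 24143589 to 32277040 counts per sample. Levels are CPM, read counts set against each library's TMM-scaled total, and 12535 genes passed the filter on low counts and were tested in edgeR's quasi-likelihood model. Genes with an adjusted p (Benjamini-Hochberg, over all of them) under 0.05 are termed called. Apc, the hairpin's target, stood at 6.8, 6.83 and 8.84 CPM in control samples, 31.8, 38.1 and 24.8 CPM in 2-day samples and 67.9, 69.9 and 92.9 CPM in 7-day samples, so its mRNA was reduced in the controls but not absent. The 8 epithelial markers checked summed to between 9715 and 12793 CPM in control samples, 14373 and 16445 CPM in 2-day samples, and 26735 and 36437 CPM in 7-day samples. Most of that sum was keratin: Krt8 averaged 3824, 5358 and 11860 CPM and Krt19 2757, 4709 and 12220 CPM in control, 2-day and 7-day samples, while Cdx2 averaged 171, 178 and 165 CPM. The 7 fibroblast markers summed to 0.563 to 1.12 CPM and the 5 endothelial markers to 1.26 to 2.93 CPM over all 9 samples. The 7 immune markers summed to between 1.24 and 1.54 CPM in control samples, 1.63 and 2.03 CPM in 2-day samples, and 4.58 and 6.88 CPM in 7-day samples, so they moved with time at a low level. The rise lay mostly in the macrophage and antigen presentation markers, with summed counts in controls, at 2 days and at 7 days of 98, 121 and 255 for Cd68, 2, 2 and 73 for Csf1r, and 7, 20 and 67 for Cd74. Ptprc, the pan-leukocyte marker, summed to 4, 14 and 7 counts, and the part of these markers in the results was not tested.

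The stretches before the transcription starts of Dusp5, Dusp6, Spry2 and Etv5 are shown because these genes are all counted as ERK outputs and yet 2 of them rose and 2 fell. RefSeq's promoter table (GRCm38.p6) matched 6 of the 9 genes, and the 250 bases before the start are used. They lie at chr19:53528895-53529144 on the plus strand for Dusp5, chr10:99262981-99263230 on the plus strand for Dusp6, chr14:105896820-105897069 on the minus strand for Spry2 and chr16:22439571-22439820 on the minus strand for Etv5, the outer of its 2 starts. The starts are those of RefSeq. In GENCODE M21, Etv5 reaches to 22439719 and Dusp5 begins at 53529109, so parts of both their windows lie inside the annotated genes. Each window is printed 5′ to 3′ in the direction of transcription, and capitals mark motif matches.
Dusp5: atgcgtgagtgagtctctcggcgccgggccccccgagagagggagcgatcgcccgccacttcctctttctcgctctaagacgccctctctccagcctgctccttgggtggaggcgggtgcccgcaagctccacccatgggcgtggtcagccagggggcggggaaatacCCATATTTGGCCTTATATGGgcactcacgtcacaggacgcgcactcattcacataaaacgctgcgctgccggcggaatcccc
Dusp6: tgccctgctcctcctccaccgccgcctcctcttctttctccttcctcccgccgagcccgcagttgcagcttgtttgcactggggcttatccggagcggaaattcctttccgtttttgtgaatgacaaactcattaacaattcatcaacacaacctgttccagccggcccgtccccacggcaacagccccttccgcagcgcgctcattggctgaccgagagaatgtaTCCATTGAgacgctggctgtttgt
Spry2: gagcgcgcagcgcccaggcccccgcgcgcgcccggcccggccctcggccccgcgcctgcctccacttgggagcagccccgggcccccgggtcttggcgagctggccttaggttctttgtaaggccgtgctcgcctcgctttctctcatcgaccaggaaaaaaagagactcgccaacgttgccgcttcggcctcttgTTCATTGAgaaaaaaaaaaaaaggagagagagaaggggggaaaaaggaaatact
Etv5: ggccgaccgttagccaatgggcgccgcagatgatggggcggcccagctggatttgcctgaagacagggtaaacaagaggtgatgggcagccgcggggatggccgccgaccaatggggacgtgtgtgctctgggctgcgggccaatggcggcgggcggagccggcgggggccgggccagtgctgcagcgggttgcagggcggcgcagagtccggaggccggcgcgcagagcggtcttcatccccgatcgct

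The capitals in Dusp5 are a pair of adjoining CArG boxes, the binding element of serum response factor, starting 82 and 72 bases before the start. A CArG box was present in 1.47% of the 32817 windows of this length, and 6 windows, 0.0183%, held it at 2 or more places. In Dusp6 the capitals are the Capicua form TCAATGGA on the reverse strand, 24 bases before the start, which 0.521% of windows held. In Spry2 they are the Capicua form TCAATGAA on the reverse strand, 54 bases before the start, which 0.643% of windows held. Any of the 4 Capicua forms (those and TGAATGAA and TGAATGGA) was in 3.19% of windows. On both strands, the AP-1 letters TGANTCA (6.75% of windows), the cyclic AMP element TGACGTCA (1.55%), the ETS letters CCGGAAGT (2.88%), the TCF letters ATCAAAG (3.21%) and the E-box CACGTG (6.02%) were also searched. Of these, the E-box was found once, in Nras, 15 bases before the start; Hras and Etv5 held no match. The CArG box and the forms starting with TCAATG were added after the windows had been read, and no match overlapped another. All capitals in the printed stretches come from these added motifs. The shares of windows that hold them are therefore no test of these matches.

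After 2 days 5 of the 7 outputs were called, while Spry2, Dusp5 and both Ras genes did not pass the test. Dusp6 was called higher and Dusp4, Etv4, Etv5 and Spry4 lower. Over all tested genes 23.7% were called, 13.1% as higher and 10.6% as lower. The control and 2-day samples did not overlap in 7 of the 9 genes, against 39.3% of all genes. The median log2 fold change of the 9 was −0.17, against −0.00391 over all genes tested. Without control replicate 2, the lower calls over all genes fell to 809, against 1333 with every sample.

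After 7 days all 9 genes were called, at a background of 82.3% of all tested genes, 40.5% higher and 41.8% lower, so a call as such sets them apart little. Samples without overlap, found in all 9, were likewise found in 82.3% of all genes. Dusp5 and Dusp6 rose about as much as each other, and the other 7 fell. The median log2 fold change of the 9 genes was −0.74 and that of all genes was −0.032. Between 7 and 2 days, 3 were called higher and 5 lower at a background of 79.1% (39.2% higher, 39.9% lower), with a median of −0.57 for the 9 and −0.028 for all genes. The samples did not overlap in 7 of the 9, against 79.3% of all genes. The 2-day and 7-day comparisons share their control samples, and bulk RNA cannot tell fewer cells of one type from less RNA per cell.

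**Figure D1:**
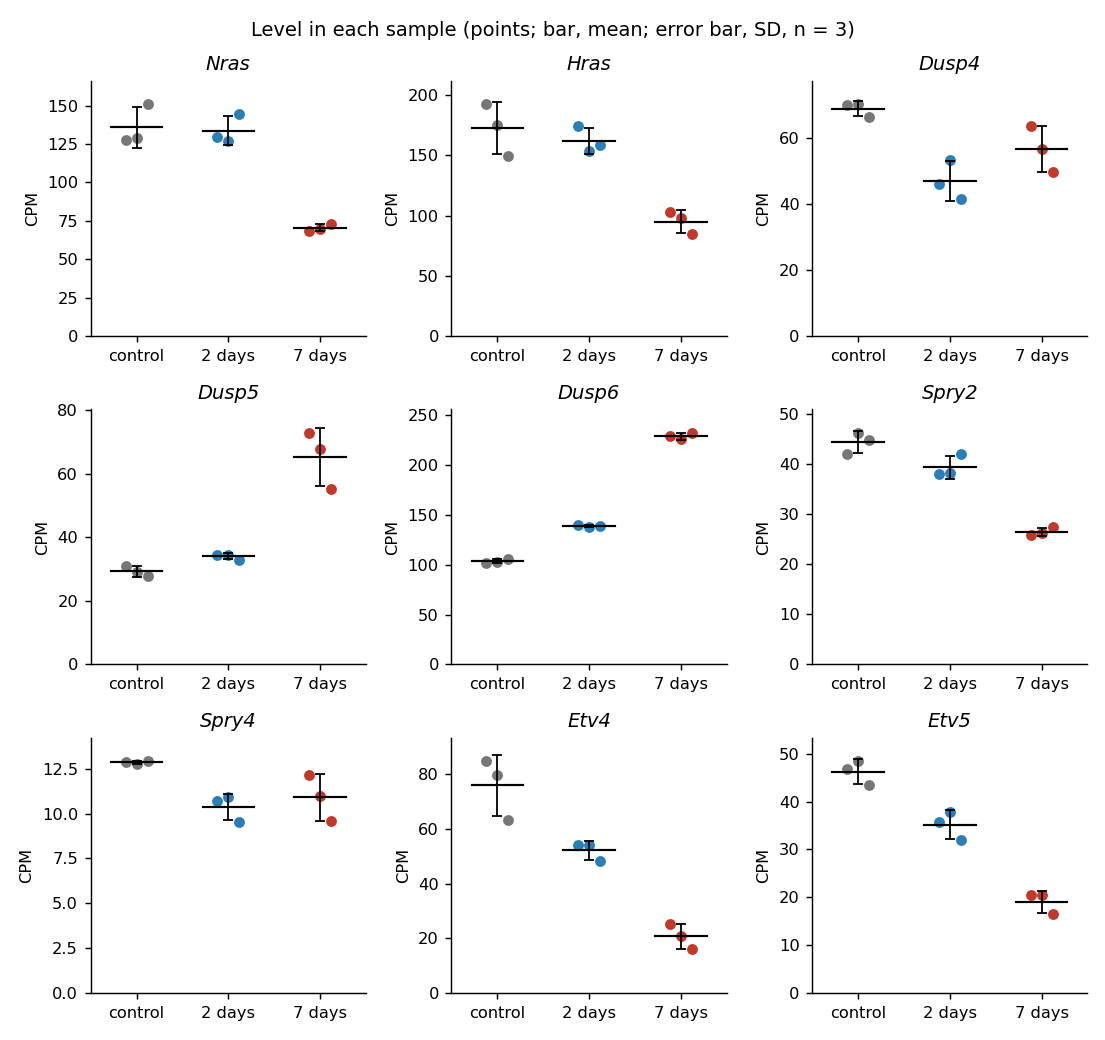
Level of each gene (y axis, CPM, linear and starting at 0) in the controls, at 2 days and at 7 days; points are samples, bars the mean and error bars the SD (n = 3). Nras, Hras, Etv4, Etv5 and Spry2 are lowest at 7 days, while Dusp5 and Dusp6 are highest there.

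Both Ras genes held their level at 2 days within the spread of the samples and were far lower at 7 days. Nras (ENSMUSG00000027852, GRCm38 chromosome 3, 103058285 to 103067914, plus strand) encodes the N-Ras GTPase. It had 127, 129 and 151 CPM in control samples, 129.8, 127 and 145 CPM in 2-day samples and 68.6, 70.0 and 72.8 CPM in 7-day samples. The 2-day samples lay inside the control range, except for 1 just under it, and all 7-day samples lay below every other sample. Nras fell 1.93-fold at 7 days (log2 fold change −0.95 ± 0.085 SE, edgeR adjusted p = 5.3e-08), and 1.9-fold against 2 days (−0.93 ± 0.085, edgeR adjusted p = 8.6e-08). At 2 days its log2 fold change was −0.021 ± 0.083 (edgeR adjusted p = 0.89).

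Hras (ENSMUSG00000025499, chromosome 7, 141189105 to 141194005, minus strand) encodes H-Ras, a close relative that differs from N-Ras mainly at its membrane-anchoring end. It had 193, 176 and 149.7 CPM in control samples, 174, 153 and 158 CPM in 2-day samples and 103, 97.7 and 84.5 CPM in 7-day samples. The control and 2-day ranges overlapped and the 7-day samples lay below both. Hras fell 1.82-fold at 7 days (−0.86 ± 0.10, edgeR adjusted p = 1.2e-06) and 1.7-fold against 2 days (−0.77 ± 0.10, edgeR adjusted p = 4.8e-06), and did not pass at 2 days (−0.092 ± 0.10, edgeR adjusted p = 0.56).

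Levels per kilobase compare genes only as far as all annotated exon bases match the transcripts present, which was not tested. These bases numbered 5331 for Nras and 3733 for Hras. On this scale Nras and Hras together summed to 71.7 ± 3.55 CPM per kilobase in control samples, 68.5 ± 3.16 in 2-day samples and 38.7 ± 2.14 in 7-day samples (SD, n = 3 each). Per kilobase, Hras stood above Nras in every sample. In CPM it did not, as control replicate 3 had 151 CPM for Nras and 149.7 CPM for Hras. The ratio of Hras to Nras per kilobase was 1.84 ± 0.381 in the controls, 1.73 ± 0.176 at 2 days and 1.93 ± 0.249 at 7 days (SD, n = 3). The ranges of the ratio overlapped between the groups.

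The PEA3 factors showed the largest falls of the 9 genes at 7 days and were already lower at 2 days. Etv4 (ENSMUSG00000017724, chromosome 11, 101769742 to 101785371, minus strand) had 84.8, 79.6 and 63.3 CPM in control samples, 54.3, 54.1 and 48.2 CPM in 2-day samples and 25.3, 20.7 and 16.1 CPM in 7-day samples. No 2 groups overlapped. It fell to 68.7% of the control level at 2 days (−0.54 ± 0.13, edgeR adjusted p = 0.0083) and to 27.2% at 7 days (−1.88 ± 0.14, edgeR adjusted p = 6.9e-09). Against 2 days the 7-day level was 2.53-fold lower (edgeR adjusted p = 4.3e-07).

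Etv5 (ENSMUSG00000013089, chromosome 16, 22381309 to 22439719, minus strand) had 46.9, 48.5 and 43.4 CPM in control samples, 35.7, 37.9 and 31.9 CPM in 2-day samples and 20.4, 20.4 and 16.4 CPM in 7-day samples. Here too each later group lay below every sample of the earlier one. Etv5 fell to 76% of the control level at 2 days (−0.40 ± 0.097, edgeR adjusted p = 0.0081) and to 41.2% at 7 days (−1.28 ± 0.10, edgeR adjusted p = 1.2e-08). It was 1.85-fold lower at 7 days than at 2 days (edgeR adjusted p = 1.1e-06). On the per-length scale Etv4 and Etv5 together made 35.7 ± 4.16 CPM per kilobase in control samples, 25.4 ± 1.82 in 2-day samples and 11.3 ± 2.0 in 7-day samples (SD, n = 3).

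The Sprouty genes both lay lower after Apc restoration but followed different courses. Spry2 (ENSMUSG00000022114, chromosome 14, 105891947 to 105896819, minus strand) had 42, 46.2 and 44.8 CPM in control samples, 38.0, 38.1 and 42.0 CPM in 2-day samples and 25.9, 26.2 and 27.3 CPM in 7-day samples. The 7-day samples were the lowest and lay within 2 CPM of each other, and the highest 2-day sample was just under the lowest control. The 2-day difference did not pass (−0.17 ± 0.078, edgeR adjusted p = 0.12). At 7 days Spry2 fell to 59.7% of the control level (−0.74 ± 0.079, edgeR adjusted p = 3.9e-07) and to 67.3% of the 2-day level (−0.57 ± 0.079, edgeR adjusted p = 8.7e-06).

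Spry4 (ENSMUSG00000024427, chromosome 18, 38586247 to 38601415, minus strand) had 12.9, 12.7 and 12.9 CPM in control samples, 10.7, 10.9 and 9.51 CPM in 2-day samples and 12.2, 11.0 and 9.57 CPM in 7-day samples. All samples without doxycycline lay below the controls, and the 2-day and 7-day samples were mixed. Its fall was small at 2 days (−0.31 ± 0.10, edgeR adjusted p = 0.041) and at 7 days (−0.24 ± 0.10, edgeR adjusted p = 0.045), and the times did not differ past the threshold (0.070 ± 0.11, edgeR adjusted p = 0.55). Neither call was stable. Leaving out any 1 of the control or 2-day samples, or 7-day replicate 2, ended the 2-day call (edgeR adjusted p between 0.052 and 0.15). Leaving out any 1 of the controls, 2-day replicate 1, or 7-day replicate 2 or 3 ended the 7-day call (edgeR adjusted p between 0.059 and 0.2), as it was also lost with DESeq2 size factors, with the DESeq2 test, with no filter and with a 5 CPM minimum (adjusted p of 0.088, 0.11, 0.051 and 0.056).

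**Figure D2:**
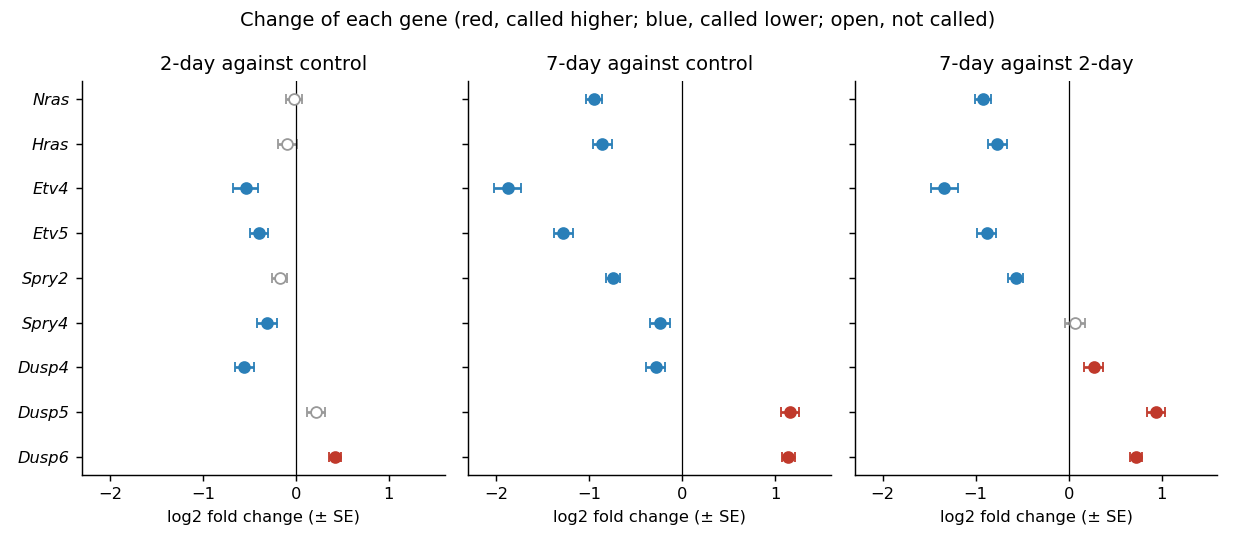
Log2 fold change of each gene (x axis, ± SE from edgeR) in the 3 comparisons; red marks genes called higher, blue genes called lower and open points those not called. At 7 days against control Dusp5 and Dusp6 sit near 1.1 and the other 7 genes lie below 0, down to −1.88 for Etv4.

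The 3 phosphatase genes parted ways: Dusp6 and Dusp5 rose, and Dusp4 fell at 2 days. Dusp6 (ENSMUSG00000019960, chromosome 10, 99263231 to 99267489, plus strand), the cytoplasmic phosphatase specific for ERK, had 102, 103 and 106 CPM in control samples, 140.0, 138 and 139 CPM in 2-day samples and 229, 226 and 233 CPM in 7-day samples. Each group was tight and lay wholly above the one before. Dusp6 rose 1.34-fold at 2 days (0.42 ± 0.067, edgeR adjusted p = 0.00027), 2.2-fold at 7 days (1.14 ± 0.067, edgeR adjusted p = 3.6e-10) and 1.65-fold between the times (0.72 ± 0.067, edgeR adjusted p = 9.2e-08).

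Dusp5 (ENSMUSG00000034765, chromosome 19, 53529109 to 53542431, plus strand), the nuclear phosphatase that also holds ERK in the nucleus, had 31.1, 29.0 and 27.7 CPM in control samples, 34.5, 34.5 and 32.9 CPM in 2-day samples and 72.9, 67.7 and 55.1 CPM in 7-day samples. The 2-day samples lay just above the controls without passing the test (0.22 ± 0.099, edgeR adjusted p = 0.13), and the 7-day samples lay far above both. Dusp5 rose 2.23-fold at 7 days (1.16 ± 0.099, edgeR adjusted p = 2.9e-08) and 1.92-fold against 2 days (0.94 ± 0.098, edgeR adjusted p = 3.5e-07). The annotation places the antisense gene AC137853.2 over 22.1% of the exon bases of Dusp5, and the library kit does not mark strand, so reads of the pair cannot be told apart.

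Dusp4 (ENSMUSG00000031530, chromosome 8, 34807297 to 34819894, plus strand), a nuclear phosphatase that acts on ERK and other MAP kinases, had 70.1, 70.3 and 66.4 CPM in control samples, 46.1, 53.4 and 41.4 CPM in 2-day samples and 63.6, 56.8 and 49.7 CPM in 7-day samples. The controls were the highest, and the 2-day and 7-day samples overlapped. Dusp4 fell to 68.1% of the control level at 2 days (−0.55 ± 0.10, edgeR adjusted p = 0.001). At 7 days it stood at 82.2% (−0.28 ± 0.10, edgeR adjusted p = 0.019), a call that ended when control replicate 2 or either of 7-day replicates 2 and 3 was left out (edgeR adjusted p between 0.052 and 0.09). The 7-day level was called 1.21-fold above the 2-day level (0.27 ± 0.10, edgeR adjusted p = 0.026), and stood at −0.15 (edgeR adjusted p = 0.14) with library size alone, where the median of all genes in this comparison was −0.44. Upper-quartile factors and a fit of the 2 groups alone ended the call as well (edgeR adjusted p = 0.18 and 0.052), as did leaving out 2-day replicate 1 or 3, or 7-day replicate 1 or 2 (edgeR adjusted p between 0.057 and 0.13).

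Per kilobase of exon the 3 phosphatase genes summed to 70.2 ± 0.721 CPM per kilobase in control samples, 75.3 ± 2.39 in 2-day samples and 120.2 ± 5.52 in 7-day samples (SD, n = 3). Dusp6 made up between 46.1% and 48.9% of that sum in control samples, 56.8% and 61% in 2-day samples, and 58.1% and 64.7% in 7-day samples. Its share was thus higher in every sample without doxycycline than in every control, while the 2-day and 7-day ranges overlapped.

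The order of the 9 genes by level per length changed with time. Within a group, the order depends on the annotated exon lengths. In the controls Hras led at 46.2 ± 5.77 CPM per kilobase, followed by Dusp6 at 33.2 ± 0.675 (SD, n = 3). Nras, Dusp4, Etv4 and Spry2 came next at 25.5 to 21.3 and neighbours among them overlapped, as did Dusp5 and Etv5 at 11.8 and 11.3. Spry4 was lowest at 2.7 CPM per kilobase. At 2 days Dusp6 (44.4 ± 0.322) and Hras (43.4 ± 2.89) overlapped at the top, Nras stood alone at 25.1, and Spry2, Dusp4 and Etv4 overlapped in turn at 18.9 to 16.8. Below them Dusp5 at 13.7, Etv5 at 8.58 and Spry4 at 2.18 stood apart from their neighbours. At 7 days Dusp6 stood alone at 73.1 ± 1.07, above Dusp5 at 26.4, Hras at 25.5 and Dusp4 at 20.7, which overlapped in turn. Nras and Spry2 overlapped at 13.2 and 12.7, and Etv4, Etv5 and Spry4 stood apart at 6.67, 4.65 and 2.29 CPM per kilobase.

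**Figure D3:**
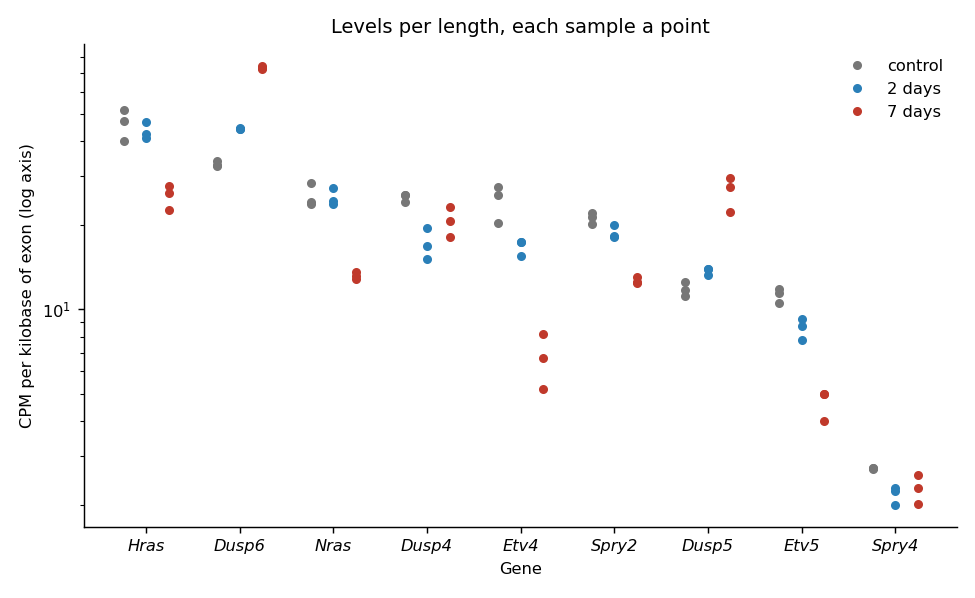
Level of each gene per length (y axis, CPM per kilobase of exon, log axis) in each of the 9 samples, coloured by group; genes run in the order of their control means. At 7 days Dusp6 stands alone at the top with a mean of 73.1 CPM per kilobase, while Spry4 is lowest in every group.

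Likeness among the 9 courses was measured as the root mean square difference in log2 CPM, centred on each gene's mean, over the 9 samples. The closest pair was Dusp4 and Spry4 at 0.12, which both lay below the controls at 2 days and at 7 days. They also moved least of the 9, with SDs in log2 CPM of 0.275 for Dusp4 and 0.174 for Spry4. Small movement by itself keeps this measure low. Dusp5 and Dusp6 followed at 0.15, then Nras and Spry2 at 0.16. The pair farthest apart was Dusp5 and Etv4 at 1.29. Among 9556 other protein-coding genes with a mean of at least 5 CPM, the closest to Nras were Mtap (0.0315), an enzyme of methionine salvage, and Efna5 (0.0439), an ephrin. Closest to Hras were Zbtb45 (0.0373) and Npepl1 (0.0459), to Dusp6 Sowahb (0.0338) and Ppm1b (0.0494), and to Dusp5 Lxn (0.0469) and Mpi (0.0536). Closest to Etv4 were Shmt2 (0.0588), a mitochondrial serine enzyme, and Sh2d5 (0.0882), and to Etv5 Nol9 (0.0559) and Fbxo21 (0.063). Spry2 was nearest to Chek2 (0.0345) and Nap1l4 (0.0366), Spry4 to Cbfa2t2 (0.0536) and Gorasp1 (0.0709), and Dusp4 to Col4a2 (0.0824) and Adam15 (0.0845). These are descriptions over 9 samples that share 3 groups.

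The rest of the pathway was followed in 10 lists, and their counts are to be read against all tested genes, of which 40.5% were called higher and 41.8% lower at 7 days, and 13.1% higher and 10.6% lower at 2 days. With library size alone, 3675 of all tested genes were called higher and 6876 lower at 7 days, against 5080 and 5237 with TMM, so the splits of the lists under that scaling carry the same shift of all genes.

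The kinases that carry the Ras signal were higher more often than lower at 7 days. Of 12 genes of the RAF, MEK and ERK kinases and their scaffolds and RSK targets, 8 rose and 3 fell (82.3% of all genes called, 40.5% higher), with a median log2 fold change of 0.42, against −0.032 over all genes. Mapk3, which encodes ERK1, averaged 506 ± 88.6 CPM at 7 days and 77.8 ± 8.17 CPM in the controls, a 6.51-fold rise (edgeR adjusted p = 1.2e-11), with 122 ± 1.8 CPM at 2 days (1.57-fold, edgeR adjusted p = 0.00057). Ksr1, a scaffold for the cascade, rose 4.73-fold at 7 days (37.3 ± 2.18 CPM, against 7.91 ± 1.47 CPM in the controls, edgeR adjusted p = 2.9e-10). Map2k1, encoding MEK1, rose 2.02-fold (245 ± 7.57 CPM at 7 days, against 121.6 ± 1.2 CPM in the controls, edgeR adjusted p = 1.8e-09). At 2 days 4 of the 12 were higher and none was called lower, and at unadjusted p under 0.05 none was lower either. With library size alone the 7-day split was 5 higher and 4 lower, with a median of 0.020, against −0.43 over all genes.

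Among 9 relatives of Ras at 7 days, 3 rose and 3 fell, a smaller share called than the 82.3% of all genes. Mras, whose product partners SHOC2 in activating RAF, fell 7.49-fold to 19.9 ± 1.05 CPM at 7 days, against 149 ± 4.42 CPM in the controls (edgeR adjusted p = 6.5e-14), and by 2 days was at 100.1 ± 5.73 CPM (1.49-fold lower, edgeR adjusted p = 3.4e-05). Rras rose 3.36-fold (120.2 ± 23.8 CPM at 7 days, against 35.8 ± 6.15 CPM in the controls, edgeR adjusted p = 9.9e-09) and Rit1 1.97-fold (edgeR adjusted p = 8.3e-08). At 2 days 3 of the 9 rose and 1 fell. With library size alone 2 rose and 5 fell at 7 days.

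Exchange factors, which load Ras with GTP, were listed together with adaptors, and 9 of the 10 listed genes were tested. Of the 9, 6 rose and 1 fell at 7 days, against 40.5% higher and 41.8% lower over all genes. Rasgrf2 rose 1.87-fold (edgeR adjusted p = 1.4e-07) and Sos2 1.64-fold (edgeR adjusted p = 0.00011). The phosphatase gene Ptpn11, which encodes SHP2, fell 1.83-fold to 107 ± 1.26 CPM at 7 days, against 196 ± 4.74 CPM in the controls (edgeR adjusted p = 1.3e-08). The median log2 fold change of the 9 tested exchange factor and adaptor genes was 0.33, against −0.032 over all genes. With library size alone 1 rose and 2 fell, with a median of −0.075, against −0.43 over all genes, and the Sos2 call was lost (edgeR adjusted p = 0.076). At 2 days 1 of the 9 was called, Gab2, which fell 1.61-fold (edgeR adjusted p = 0.00023; named after its value was seen).

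Of 9 genes for GTPase activating proteins, which switch Ras off, 5 rose and 2 fell at 7 days, a share called near the 82.3% of all genes. Rasa4 rose 18-fold to 51.4 ± 7.66 CPM at 7 days, against 2.84 ± 0.112 CPM in the controls (edgeR adjusted p = 3.9e-13), and was 3.68-fold higher at 2 days (edgeR adjusted p = 1.4e-07). Dab2ip rose 1.62-fold at 7 days (edgeR adjusted p = 2e-06) and Rasa3 fell 2.71-fold (edgeR adjusted p = 1.8e-09). The 7-day split was 2 higher and 4 lower with library size alone. At 2 days 1 rose and 1 fell.

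Of 9 genes listed under the lipid processing of Ras, 3 rose and 5 fell at 7 days, and 2 rose at 2 days. These shares lay near the 82.3% and 23.7% of all genes called. Fntb, the beta subunit of farnesyltransferase, fell 2.2-fold to 14.3 ± 2.16 CPM at 7 days, against 31.4 ± 2.98 CPM in the controls (edgeR adjusted p = 2e-07). The palmitoyltransferase gene Zdhhc9 rose 3.06-fold (edgeR adjusted p = 9.8e-10), and Lypla1, a thioesterase gene, rose 3.4-fold (edgeR adjusted p = 9e-11). The split was 2 higher and 6 lower with library size alone.

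Other genes counted as ERK outputs moved both ways. Of the 4 further genes of a published ERK activity score, which shares Etv4, Etv5, Spry2, Spry4, Dusp4 and Dusp6 with the 9, 3 fell at 7 days, where 41.8% of all genes did. Ccnd1, the gene of cyclin D1, fell 2.39-fold to 376 ± 22 CPM at 7 days, against 900.0 ± 9.77 CPM in the controls (edgeR adjusted p = 9.9e-10), and by 2 days it was 1.42-fold lower (edgeR adjusted p = 0.00024). Epha4 fell 2.05-fold at 7 days (edgeR adjusted p = 7.6e-08) and Epha2 1.54-fold (edgeR adjusted p = 2.6e-05). Of 8 tested immediate early genes, of 10 listed, 6 rose and 1 fell at 7 days, against 40.5% higher and 41.8% lower over all genes. Fos rose 4.14-fold to 48.5 ± 7.71 CPM at 7 days, against 11.8 ± 1.21 CPM in the controls (edgeR adjusted p = 3.4e-10), Junb 2.39-fold (edgeR adjusted p = 5.4e-09) and Ier3 1.63-fold (edgeR adjusted p = 1.2e-05). Of the 8, 3 rose and 2 fell with library size alone.

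Of 6 tested members among the other MAP kinase phosphatases, 3 were higher and 2 lower at 7 days, near the shares of all genes (40.5% and 41.8%). Dusp1, which prefers p38 and JNK and is an immediate early gene, rose 5.84-fold to 53.8 ± 8.3 CPM at 7 days, against 9.2 ± 0.933 CPM in the controls (edgeR adjusted p = 6e-11). The ERK-directed phosphatases of the Dusp6 subgroup went the other way from Dusp6. Dusp9 fell 6.5-fold to 17.6 ± 2.21 CPM at 7 days, against 114 ± 12.4 CPM in the controls (edgeR adjusted p = 4.3e-12), and by 2 days it was 2.07-fold lower (edgeR adjusted p = 1.6e-06). Dusp7 fell 3.16-fold to 8.39 ± 0.973 CPM at 7 days, against 26.6 ± 1.36 CPM in the controls (edgeR adjusted p = 9.2e-10). Dusp2 was below the filter. The split was 2 higher and 3 lower with library size alone.

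Of 6 further genes of this kind (Sprouty, Spred and Il17rd), 3 rose and 3 fell at 7 days, where 82.3% of all genes were called. Spry1 fell 2.21-fold to 32.3 ± 1.18 CPM at 7 days, against 71.4 ± 1.57 CPM in the controls (edgeR adjusted p = 7.6e-10). At low levels, Spred3 rose 6.19-fold to 3.94 ± 0.524 CPM (edgeR adjusted p = 2.7e-09) and Spry3 2.41-fold to 4.25 ± 0.918 CPM (edgeR adjusted p = 1.9e-05). Of 9 further ETS factor genes, Cic included, 3 rose and 4 fell, near that share. Etv3, an ETS repressor, rose 2.97-fold to 79.7 ± 0.7 CPM at 7 days, against 26.9 ± 0.964 CPM in the controls (edgeR adjusted p = 6.7e-11). Cic, the gene of Capicua, rose 1.55-fold (edgeR adjusted p = 5.5e-06) and Ets1 fell 2.01-fold (edgeR adjusted p = 6e-06). With library size alone the Sprouty and Spred list had 2 higher and 3 lower, and the ETS list 2 higher and 5 lower.

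**Figure D4:**
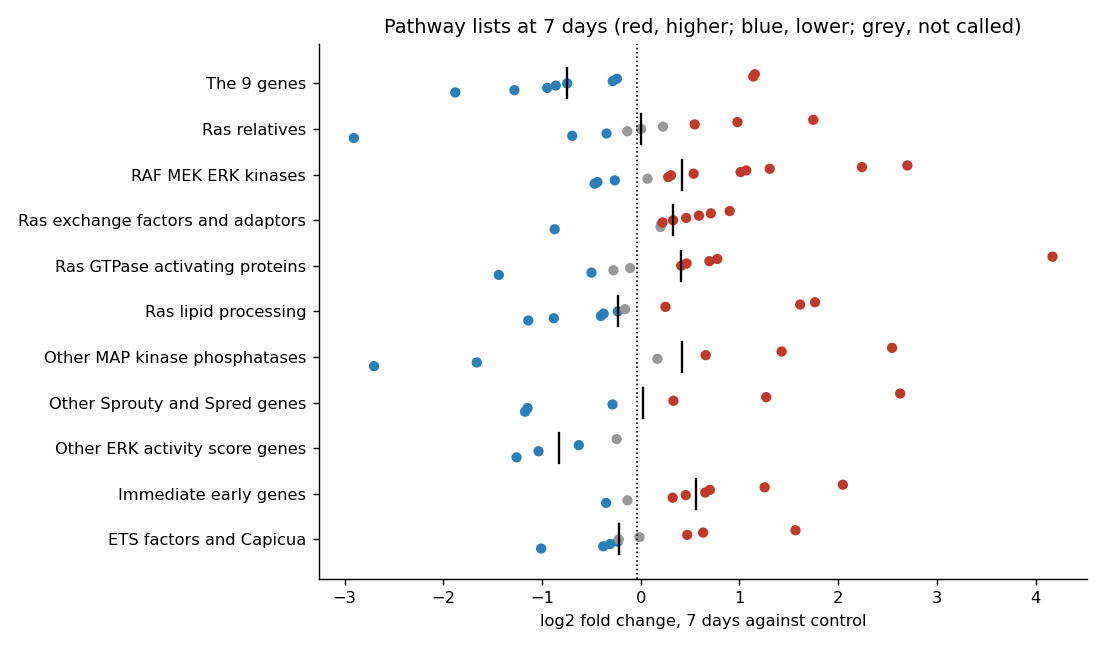
Log2 fold change at 7 days against control (x axis) of each tested gene, with the 9 genes on top and the 10 pathway lists under them; red marks genes called higher, blue lower and grey not called, short bars the median of each list and the dotted line the median of all genes. The RAF, MEK and ERK kinases have a median of 0.42 and the 9 genes one of −0.74.

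Scaling touched the size of the 7-day changes more than their direction. With library size alone the median of all genes moved to −0.43 at 7 days against control, and with upper-quartile factors to −0.13. Under library size alone Dusp6 stood at 0.74 and Dusp5 at 0.75, still called higher (edgeR adjusted p = 3e-07 and 1.7e-06), and Nras fell by 1.35 on the log2 scale. Relative to the median of all genes, the direction of each of the 9 genes at 7 days against control was the same under all 5 scalings. A scaling shifts all genes by nearly the same amount, so this could hardly have differed and is no check on the directions. Between 7 and 2 days, Spry4 was at −0.35 with library size alone, and called lower there (edgeR adjusted p = 0.0042), where the median of all genes in this comparison was −0.44, below Spry4.

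**Figure D5:**
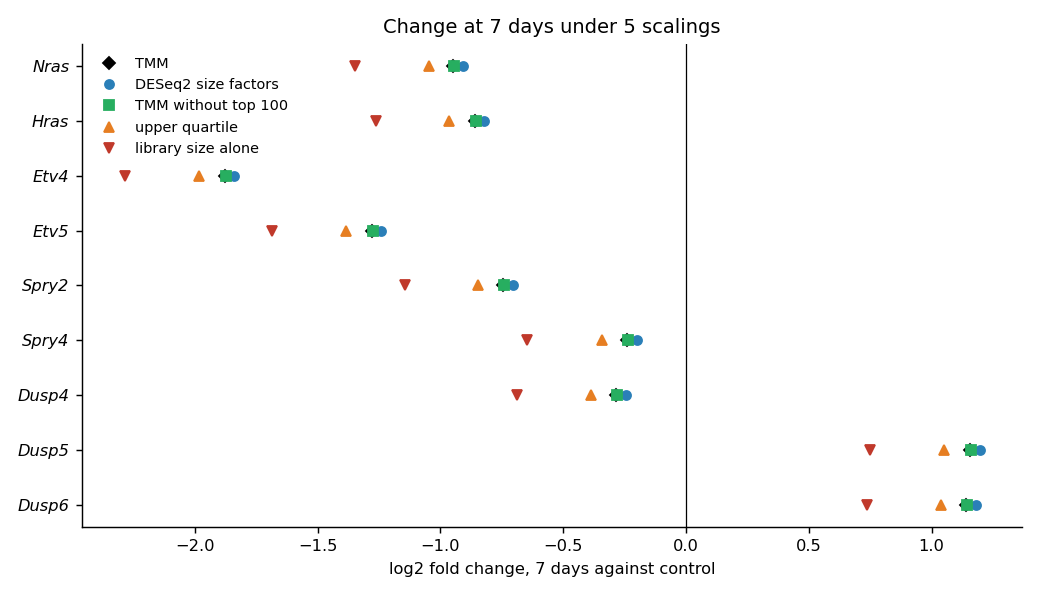
Log2 fold change at 7 days against control (x axis) of each of the 9 genes under the main TMM scaling and 4 others. Points of library size alone lie about 0.4 to the left of TMM for each gene, and Dusp5 and Dusp6 stay above 0 in each scaling.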

How the data were processed

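Poly(A) RNA was sequenced in 9 samples, 3 per group, grouped by title. What the authors deposited is a single matrix of unnormalized gene counts. Per the submitters' processing notes, STAR 2.7.0e, featureCounts and DESeq2 were used, with builds mm10 and GRCm38. Not given in the sources used here are their annotation release and strand setting. The kit in the labels' protocols, NEBNext Ultra II RNA, is not the directional version.

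Of 21253 gene IDs, 21236 had a symbol in GENCODE M21 (GRCm38), which also gave positions and exon lengths. Counts were filtered with filterByExpr, scaled with TMM factors (0.785 to 1.12) and tested in edgeR 4.0.16 (R 4.3.3) with glmQLFit and glmQLFTest, over all 9 samples with the group alone, two-sided. Standard errors were derived from each log2 fold change and its F statistic. Levels per length are CPM per kilobase of all annotated exon bases. The testing code was checked on simulated counts. Replicates of a group differed by more than sampling noise (chi-square per degree of freedom between 4.24 and 38.3).

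The 9 genes, the 10 pathway lists (85 genes) and the rule for naming were chosen with earlier results of these data known. The rule names the 9 genes, Apc, up to 3 tested genes per list with the smallest p at 7 days against control, and the 2 genes most like each of the 9. Alternatives tried were library size alone, DESeq2 size factors, upper-quartile factors, TMM without the 100 most abundant genes, no filter, a mean of at least 5 CPM, DESeq2 1.42.0, limma-voom (limma 3.58.1), a block for the replicate number, a fit of just the 2 groups in question, and leaving out each sample. Depth limits precision mainly for Spry4, with 261 to 444 counts per sample.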

Additional observations from a re-analysis of the deposited data

How the results depend on the processing

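Each result was recomputed under 19 alternatives. Of the log2 fold changes of the 9 genes at 7 days against control, none changed sign, and those of Dusp4 and Spry4 lost their call under some. At 2 days, Nras ran from −0.080 to 0.061 and Hras from −0.18 to 4.3e-05 when each sample was left out in turn, turning sign without control replicate 3 or 2-day replicate 1 or 2 for Nras (0.061, 0.00031 and 0.014) and without control replicate 1 for Hras. Neither was called in any of these. Between 7 and 2 days, Spry4 ran from −0.012 to 0.16 with each sample left out, was −0.054 with upper-quartile factors and −0.35 with library size alone, which also turned Dusp4 to −0.15. The genes called lower at 2 days ran from 809 to 1517 with each sample left out. The split of all genes at 7 days against control was 3675 higher and 6876 lower with library size alone, against 5080 and 5237, and between 7 and 2 days 3281 and 7041, against 4912 and 5006. The causes of these shifts were not tested. The labels do not say that a replicate number marks a shared source, and the samples were not treated as paired, since same-numbered samples had correlations of their deviations from −0.13 to 0.48 and not all were above 0.1. As a hint of pairing from the data, numbers 1 and 3 correlated positively in all 3 pairs of groups, and 6 of 9 samples correlated best with their own number. With the replicate block, 2 of the 9 genes were called higher at 2 days, against 1, as Dusp5 passed (edgeR adjusted p = 0.036), and all genes called there numbered 4039, against 2969.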
